A study of Mus musculus with 51 samples.

Results

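The interleukins and their receptors were followed across 3 tissues of mice given paclitaxel (PTX), a microtubule-stabilising chemotherapy drug. The members were all gene symbols made of Il and a digit that had at least 10 counts in at least 3 of the 51 libraries, which left 62 of 85 such symbols among 22609 symbols in the tables. The libraries were bulk RNA-seq of hind paw skin taken by punch biopsy, of dorsal root ganglia (DRG) from lumbar levels 3 to 5, and of lumbar spinal cord. All mice were male C57 of 8 to 12 weeks, and the labels named no mutation or transgene. Mice received 2 intraperitoneal injections of PTX at 2 mg/kg, 1 day apart, or vehicle, and the 17 groups held 3 libraries each. DRG and paw each had a vehicle group at day 2 and PTX groups at days 2, 7, 22 and 35. Spinal cord came as 2 sets under different source names. Set A held PTX and vehicle at days 1 and 7, and set B held PTX at days 1, 22 and 35 with no vehicle.

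Interleukins are secreted or nuclear signalling proteins by which immune cells, epithelia, glia and neurons influence one another. Most act through paired receptor chains. Members of the IL-1 family, such as IL-1 beta and IL-33, signal through receptors of one shared fold that recruit the adaptor MyD88, and are restrained by a receptor antagonist (Il1rn), a decoy receptor (Il1r2) and a binding protein (Il18bp). The IL-6 group uses the common chain gp130 (Il6st), and the IL-2 and IL-4 groups use the common gamma chain (Il2rg); both signal through JAK kinases and STAT factors. In skin the IL-36 cytokines, named Il1f5, Il1f6, Il1f8 and Il1f9 in these tables, are made largely by keratinocytes. In sensory neurons the receptors for IL-31 and IL-4 are known for their part in itch.

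By role, the 62 members comprised 20 of the IL-1 family (10 ligands or antagonists and 10 receptors or binding proteins), 11 of the IL-6 and IL-12 families, 13 of the groups that use the shared gamma or beta chains, 8 of the IL-10 family, 8 of the IL-17 family, and Il16 and Il34. Of the 23 symbols left out, 5 had no count in any library (Il3, Il9, Il11ra2, Il28a and Il28b). Another 6 reached 10 counts in 1 or 2 libraries (Il10, Il12b, Il19, Il24, Il5ra and Il9r), so the classical products of activated T cells and macrophages Il2, Il4, Il10, Il13, Il17a and Il22 fell below the rule. Just inside the threshold lay Il5 and Il23a with 3 libraries, and Il6, Il12a and Il20 with 4. Il11ra1 is uncertain, because it has a near-identical copy, Il11ra2, that received no read. After the filter on low counts, 47 members could be tested in DRG, 54 in paw and 47 in cord, with 41 in all 3, and Il12a and Il23a in none.

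The DRG libraries held 18645710 to 27257659 reads in genes, the paw libraries 13346971 to 21697763 and the cord libraries 17661067 to 30247230. Levels are given as CPM, the count of a gene scaled to a library of fixed size, which are not corrected for gene length, so levels are compared between libraries and not between genes. Some libraries stood apart. Vehicle paw replicate 2 had 44.1 reads outside genes for every 100 in genes. In 5 of the 6 set A cord libraries of day 1, summed levels of 7 sensory neuron markers (Scn10a, Trpv1, Calca and others) were 1014 to 2924 CPM, against 67.9 to 173 CPM in the other 16 cord libraries. The exception was vehicle replicate 1, at 74.2 CPM. No label states that replicates are different animals, so each p-value measures the spread between libraries, which may be technical.

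In the vehicle libraries most members had a home tissue. Among 54 members tested over the 3 tissues, 31 were highest in paw skin, 6 in DRG (Il7, Il10rb, Il16, Il25, Il31ra and Il34) and 5 in cord (Il12rb1, Il18bp, Il1rapl2, Il20ra and Il33), where highest means higher than both other tissues at an adjusted p under 0.05 (edgeR quasi-likelihood test, Benjamini-Hochberg over all genes). The remaining 12 met this in no tissue. The share of all genes that meet this rule was not computed, so these counts have no background. Members with few or no reads outside 1 tissue passed the low-count filter only through that tissue. Among them were Il1f6, Il1f8, Il1f10 and Il22ra1 in paw and Il20ra in cord. Their class therefore followed from the filter. All 17 tested IL-1 family members had a highest tissue, 14 of them paw and 3 cord, and none was highest in DRG. The 14 include Il1f6, Il1f8 and Il1f10. Between DRG and paw 40 members differed, 8 higher and 32 lower in DRG, in a comparison where 80.2% of all genes differed (41% higher, 39.2% lower). Between DRG and cord 34 differed, 22 higher and 12 lower in DRG, against 62.1% of all genes (30.7% higher, 31.3% lower). Between paw and cord 42 differed, 34 higher and 8 lower in paw, against 84.1% of all genes (40.4% higher, 43.7% lower). The share of members that differed was thus near the background. Their direction was weighted to paw, in part through members that only paw carried past the filter. Without the 3 vehicle cord libraries of day 1, an alternative chosen after seeing the data, 35 differed between DRG and cord and 44 between paw and cord. The shares of all genes in that fit are not given. In bulk tissue, fewer cells of a type and less RNA per cell cannot be told apart.

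**Figure D1:**
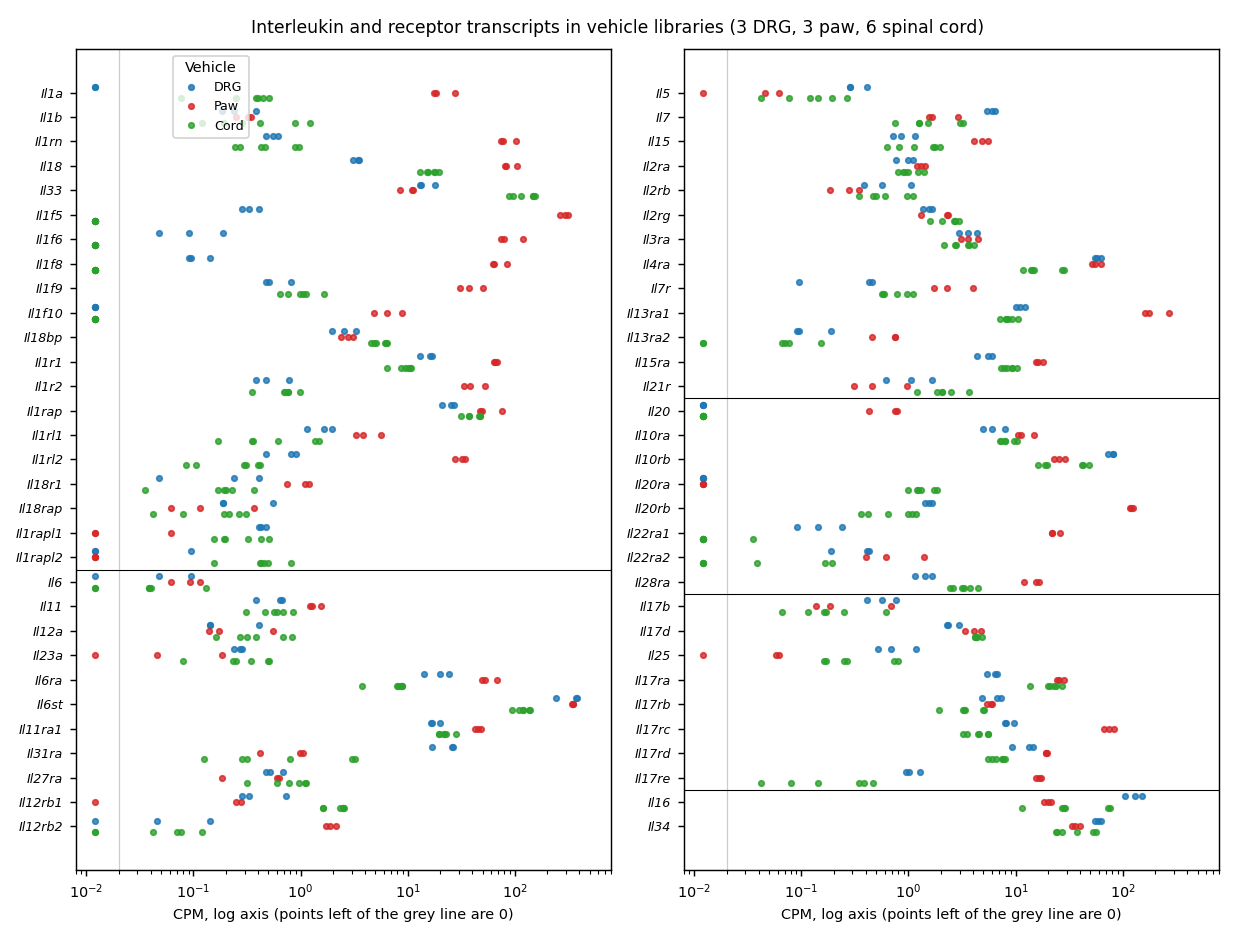
Level in CPM (log axis) of each of the 62 members in the vehicle libraries of DRG, paw and cord, 1 point per library, with horizontal lines between families and points left of the grey line at 0. The IL-36 cytokines Il1f5, Il1f6 and Il1f8 sit between 62.8 and 315 CPM in paw, with cord points at 0, while Il33 is highest in cord and Il31ra in DRG.

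Several IL-1 family ligands were read almost entirely in skin. The IL-36 receptor antagonist Il1f5 was at 290.1 ± 26.2 CPM in paw (SD, n = 3), at 0.343 ± 0.0638 in DRG and at 0 in all 6 vehicle cord libraries. Taking 3 counts over the cord group as a floor, it was at least 15382-fold higher in paw than in cord. The agonists IL-36 alpha (Il1f6) and IL-36 beta (Il1f8) were at 91.4 ± 24.5 and 70.2 ± 12.1 CPM in paw and at 0 in cord, at least 4848-fold and at least 3721-fold higher. IL-36 gamma (Il1f9) was at 39.6 ± 9.98 CPM in paw, 0.595 in DRG and 1.04 in cord. The related Il1f10, which encodes IL-38, was at 6.65 ± 1.98 CPM in paw and at 0 in both other tissues, at least 142-fold higher than in DRG and at least 353-fold higher than in cord. The antagonist of IL-1 itself, Il1rn, was at 84.8 ± 15.7 CPM in paw, 0.547 in DRG and 0.540 in cord, with a log2 difference of −7.22 ± 0.32 (SE) for DRG minus paw. IL-1 alpha (Il1a), an alarmin stored in keratinocytes, averaged 21.2 ± 5.38 CPM in paw, 0.0316 in DRG and 0.342 in cord. IL-18, another alarmin of epithelia, averaged 89.8 ± 12.9 CPM in paw, 16.6 in cord and 3.36 in DRG.

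The skin pattern extended to receptors that epithelia carry. Il20rb, a chain of the receptors for IL-20 and IL-24, was at 120.2 ± 3.72 CPM in paw and 0.780 in cord, a log2 difference of 7.40 ± 0.11 (edgeR adjusted p = 2.61e-13). Il22ra1, the IL-22 receptor chain of barrier cells, averaged 23.2 CPM in paw and 0.157 in DRG. Il13ra1, which pairs with Il4ra to bind IL-4 and IL-13, was at 202.8 ± 59.6 CPM in paw, 11.1 in DRG and 8.64 in cord. Il4ra itself did not follow paw alone: it averaged 58.1 CPM in DRG, 56.7 in paw and 18.4 in cord.

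Position in the genome followed the same pattern. A run of 6 neighbouring coding genes on chromosome 2 (Il1f8, Il1f9, Il1f6, Il1f5, Il1f10 and Il1rn) was made of members only, and all 6 were highest in paw. For Il1f6, Il1f8 and Il1f10 this followed from the filter, which they passed only through paw. A second run of 6 on chromosome 1 held the receptors Il1r2, Il1r1, Il1rl2, Il1rl1, Il18r1 and Il18rap, of which 5 entered the vehicle comparison and all 5 were highest in paw. Neighbouring genes are not independent, so these are descriptions of 2 stretches and not 11 separate results.

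The clearest DRG member was Il31ra, the receptor chain that lets itch neurons sense IL-31. It averaged 23.1 ± 5.50 CPM in vehicle DRG, 0.814 in paw and 1.29 in cord. Its log2 difference was 4.91 ± 0.50 against paw (edgeR adjusted p = 2.50e-06) and 4.99 ± 0.38 against cord (adjusted p = 7.86e-07). Il16, a chemoattractant for CD4-bearing cells, averaged 128.5 ± 23.1 CPM in DRG, 20.03 in paw and 40.9 in cord. Il10rb, the shared second chain of the IL-10, IL-22 and lambda interferon receptors, averaged 78.5 ± 4.19 CPM in DRG, 25.6 in paw and 31.3 in cord. Il34, a ligand of the macrophage receptor CSF1R, averaged 59.2 CPM in DRG, 36.3 in paw and 36.9 in cord. Il7, a survival factor for lymphocytes, averaged 5.98 CPM in DRG, 2.04 in paw and 1.84 in cord.

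In cord the leading member was Il33, an alarmin of glia in the central nervous system. It averaged 124.8 ± 28.9 CPM in vehicle cord, 14.8 ± 2.77 in DRG and 10.3 ± 1.53 in paw. Its log2 difference was −2.97 ± 0.14 for DRG minus cord (edgeR adjusted p = 7.98e-09) and −3.54 ± 0.15 for paw minus cord (adjusted p = 1.85e-10). Il20ra was read in cord alone among vehicle libraries, at 1.39 ± 0.327 CPM, at least 29.5-fold above DRG and at least 25.5-fold above paw. Il12rb1, a chain of the IL-12 and IL-23 receptors, averaged 2.17 ± 0.441 CPM in cord, 0.449 in DRG and 0.175 in paw. The vehicle cord means include 2 libraries of day 1 with sensory neuron transcripts, and Il31ra ran from 0.127 to 3.20 CPM over the 6. Peripheral myelin markers, a list chosen after values were seen, were high in all 3 vehicle libraries of day 1. They summed to 5108 to 15507 CPM there and to 1094 to 3476 at day 7. The gp130 chain Il6st was broad, at 333.6 ± 80.8 CPM in DRG, 346.7 ± 5.75 in paw and 119.4 ± 16.5 in cord. The inflammatory ligands Il1b and Il6 were close to the limit of detection everywhere in vehicle mice, at 0.267, 0.305 and 0.523 CPM for Il1b and at 0.0475, 0.0896 and 0.0416 CPM for Il6 in DRG, paw and cord.

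The first treatment question was whether PTX altered these genes in DRG. The vehicle libraries of day 2 served as controls for all 4 PTX days, so the 4 comparisons share them. After day 2, drug and day cannot be told apart. The day 35 libraries of DRG and paw, like all of set B, had titles of another style than the vehicle libraries. The summary lines of their counts also had another format. Whether they were processed apart is not stated, and day 35 cannot be told apart from such a difference. No member passed an adjusted p of 0.05 in edgeR at any of the 4 days. Over all genes the share called was 0% at day 2, 0.157% at day 7, 0% at day 22 and 0.209% at day 35. At an unadjusted p under 0.05 there were 3, 20, 7 and 1 members at these days, all of them higher in PTX, of 47 tested. The matching shares of all genes were 7.6%, 22.4%, 8.85% and 13% in both directions and 4.24%, 12.3%, 4.23% and 5.37% in the higher direction alone, and at day 7 the 20 members were 42.6% of those tested. DESeq2 called 0, 7, 1 and 0 members: Il1b, Il1f9, Il1r2, Il1rn, Il13ra1, Il17ra and Il33 at day 7 and Il12rb1 at day 22. The shares of all genes that DESeq2 called were 0%, 5.86%, 0.298% and 1.18%. The median log2 fold change of the tested members was 0.24, 0.42, 0.20 and 0.14, against about 0.00 for all genes.

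At day 7 the IL-1 family held the most members at an unadjusted p under 0.05. All 14 of its tested members had a positive log2 fold change, 11 of them at that p, with a median of 0.87. Of all 47 members tested, 40 (85.1%) were positive, beside 49.8% of all genes. The share of all genes at that p was 22.4%, and 12.3% in the higher direction alone. By role, 4 of 6 ligands and 7 of 8 receptors reached that p. The IL-6 and IL-12 families had 0 of 7, the shared-chain groups 5 of 12, the IL-10 family 2 of 4 and the IL-17 family 2 of 8. None of these counts rests on an adjusted call. Replicate 2 was the highest of the 3 PTX libraries in 19 of the 20 members past the unadjusted threshold at day 7, and in 7 of 7 at day 22. Members that share their highest library are not separate results.

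The member furthest from vehicle at day 7 was Il1b, which encodes the fever-inducing cytokine IL-1 beta. It read 0.237, 0.183 and 0.381 CPM in vehicle replicates 1 to 3 and 1.34, 3.85 and 1.02 CPM in PTX day 7. Every day 7 library lay above every vehicle library, with replicate 2 far above its group. These levels rest on 17 reads in the vehicle group and 118 in the day 7 group. The ratio of means was 7.76 and the log2 fold change 2.88 ± 0.66 (SE), with an edgeR adjusted p of 0.076. On the other days Il1b read 0.221, 0.713 and 0.248 CPM at day 2, 0.454, 1.91 and 0.826 at day 22, and 0.581, 1.04 and 0.599 at day 35. Days 22 and 35 also lay wholly above vehicle, whereas day 2 overlapped it.

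Both natural brakes on IL-1 showed the same shape. The antagonist Il1rn read 0.616, 0.548 and 0.476 CPM in vehicle and 1.34, 5.22 and 1.27 CPM at day 7, a log2 fold change of 2.19 ± 0.58 (edgeR adjusted p = 0.088). The decoy receptor Il1r2 read 0.474, 0.776 and 0.381 CPM in vehicle and 1.502, 3.90 and 1.07 CPM at day 7, a log2 fold change of 1.92 ± 0.49 (adjusted p = 0.084). IL-36 gamma (Il1f9) read 0.474, 0.502 and 0.809 CPM in vehicle and 1.56, 4.90 and 1.12 CPM at day 7, a log2 fold change of 2.02 ± 0.53 (adjusted p = 0.085). For all 3 genes the groups did not overlap, and replicate 2 of day 7 read higher than any other DRG library. Over all 47 members, 15 lay wholly above vehicle at day 7, where 14.3% of all genes did, and 1 (Il17d) lay wholly below, where 5.02% did. On days 2, 22 and 35 the members wholly above numbered 7, 9 and 7, beside 9.48%, 9.06% and 10.6% of all genes. Those wholly below numbered 0, 0 and 1 (Il18), beside 3.37%, 6.44% and 8.84%.

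Transcripts of neutrophils, white cells that carry much Il1r2 and Il1b, were high in the same library. Summed over 10 neutrophil markers (S100a8, S100a9, Ngp, Camp and others, all detected in every DRG library), the level was 132 to 186 CPM in vehicle and 434, 2415 and 283 CPM in day 7 replicates 1 to 3. Replicate 2 was thus the highest of day 7 for the markers as for the IL-1 genes. On days 2, 22 and 35 the sum ran from 48.2 to 640, 193 to 365 and 189 to 291 CPM. At day 2, S100a8 read 108 and 126 CPM in replicates 2 and 3, against 90.7 and 52.5 in day 7 replicates 1 and 3. Il1b read lower in those day 2 libraries than in those day 7 libraries, at few reads in each. How Il1b relates to the markers was not tested. At day 7 the median log2 fold change of the 10 markers was 2.73, and none passed the adjusted threshold. S100a8 had 2.81 ± 0.93 there (edgeR adjusted p = 0.130). Summed macrophage and microglia markers were 110 to 193 CPM in vehicle and 154 to 410 CPM at day 7. Fat cell markers summed to 15.5 to 55.7 CPM in vehicle and 91.7 to 107 CPM at day 7, with no overlap. Without replicate 2 of day 7 the log2 fold changes were 2.08 for Il1b, 1.21 for Il1rn, 1.18 for Il1r2, 1.12 for Il1f9 and 0.56 for Il17ra, against 0.62 for Il33, and no member was called. Without replicate 3 of day 7, 8 members were called (Il1b, Il1f9, Il1r2, Il1rn, Il13ra1, Il17ra, Il18rap and Il28ra). The share of all genes called in that fit is not given, so this count has no background beside it. The part of these cell types in the interleukin values was not tested.

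**Figure D2:**
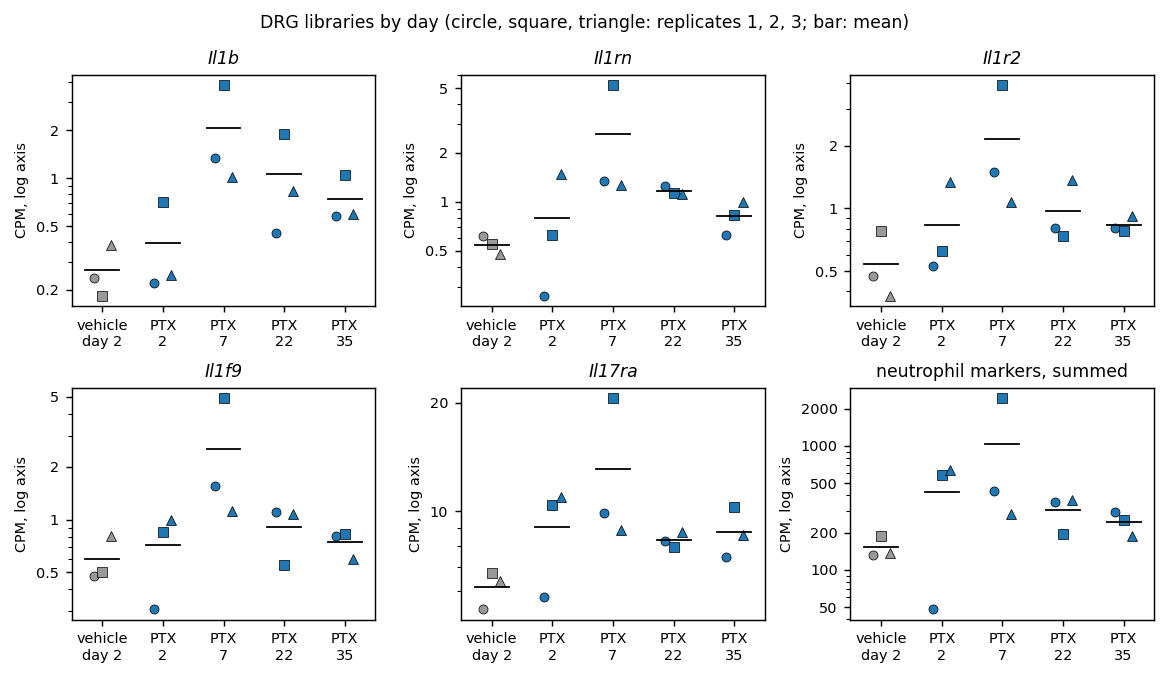
DRG levels in CPM of Il1b, Il1rn, Il1r2, Il1f9 and Il17ra and the summed level of the neutrophil markers, by group from vehicle day 2 to PTX day 35; circle, square and triangle are replicates 1, 2 and 3 and the bar is the mean. In the day 7 group the square, replicate 2, is highest in every panel, at 3.85 CPM for Il1b and 2415 CPM for the markers.

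The promoters of the IL-1 genes just described are shown because their levels were highest in the same DRG library. Each is the stretch of 250 bases before the gene start in RefSeq, build GRCm38.p6, 5′ to 3′ on the gene's strand, with motif matches in capitals. Il1b lies at chr2:129371140-129371389 on the minus strand, Il1f9 at chr2:24186226-24186475 on the plus strand and Il1r2 at chr1:40085843-40086092 on the plus strand.
Il1b: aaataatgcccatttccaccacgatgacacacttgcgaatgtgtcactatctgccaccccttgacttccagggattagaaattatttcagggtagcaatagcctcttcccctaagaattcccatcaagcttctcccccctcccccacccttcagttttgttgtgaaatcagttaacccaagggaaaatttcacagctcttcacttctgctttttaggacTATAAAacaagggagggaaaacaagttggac
Il1f9: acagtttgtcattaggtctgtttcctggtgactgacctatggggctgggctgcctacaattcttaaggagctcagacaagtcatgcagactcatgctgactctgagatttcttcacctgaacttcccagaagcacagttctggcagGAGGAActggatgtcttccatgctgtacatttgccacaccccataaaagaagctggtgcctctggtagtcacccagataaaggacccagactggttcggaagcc
Il1r2: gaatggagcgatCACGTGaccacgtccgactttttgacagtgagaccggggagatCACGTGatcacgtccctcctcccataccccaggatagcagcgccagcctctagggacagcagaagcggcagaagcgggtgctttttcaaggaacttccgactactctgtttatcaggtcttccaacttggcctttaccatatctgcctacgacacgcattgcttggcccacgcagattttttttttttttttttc
The capitals mark a TATA box (TATAAA) starting 31 bases before the start of Il1b, a PU.1-type core (GAGGAA) 104 bases before that of Il1f9, and E-boxes (CACGTG) 238 and 195 bases before that of Il1r2. The letters of a kappa-B site and of a C/EBP site (TTGCNNAA) were searched on both strands too, and none of the 3 stretches held either. Of 48 members with a promoter in the reference table, a kappa-B match was in 4 (8.33%), a C/EBP match in 12 (25%), a PU.1 match in 15 (31.2%), a TATA box in 6 (12.5%) and an E-box in 2 (4.17%). Over 32851 starts of all genes the shares were 3.9%, 9.56%, 23.3%, 12.4% and 6.02%. A member counted as matched if any of its starts held a match, whereas the shares over all genes count single starts. Members with several starts had more chances to match, so these shares cannot be compared directly. A match is a description of letters and not of a bound site.

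The receptors Il13ra1 and Il17ra also had low p-values in DRG at day 7. Il13ra1 read 10.004, 11.1 and 12.2 CPM in vehicle and 17.1, 22.0 and 13.6 CPM at day 7, a log2 fold change of 0.61 ± 0.15 (edgeR adjusted p = 0.084). The IL-17A receptor chain Il17ra read 5.36, 6.76 and 6.43 CPM in vehicle and 9.87, 20.6 and 8.87 CPM at day 7, a log2 fold change of 1.03 ± 0.29 (adjusted p = 0.099). Neither gene overlapped vehicle, and replicate 2 was again the highest. The pair of IL-33 and its receptor ST2 (Il1rl1) differed from this shape. Il33 read 13.2, 17.9 and 13.1 CPM in vehicle, 20.3, 22.7 and 22.8 at day 2 and 26.0, 26.4 and 20.8 at day 7, and its log2 fold changes were 0.55 ± 0.21 and 0.67 ± 0.21 (adjusted p = 0.113 at day 7). Il1rl1 read 1.14, 1.96 and 1.67 CPM in vehicle, 2.03, 3.16 and 3.22 at day 2 and 2.90, 3.37 and 2.60 at day 7. Both lay wholly above vehicle at days 2 and 7, though Il1rl1 in day 2 replicate 1 did so narrowly. In neither gene was replicate 2 of day 7 far above its group. The log2 fold changes of Il1rl1 were 0.79 ± 0.26 and 0.84 ± 0.26. Il1rap, the accessory chain that the IL-1, IL-33 and IL-36 receptors share, read 20.7, 26.9 and 25.4 CPM in vehicle and 32.6, 29.99 and 33.4 at day 2, a log2 fold change of 0.37 ± 0.16. The signalling receptor Il1r1 had 0.09 ± 0.15 at day 2 and 0.36 ± 0.15 at day 7, and the lymphocyte growth factor Il15 had 0.46 ± 0.35 and 0.84 ± 0.35.

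At day 22 the leading DRG member was Il12rb1. It read 0.332, 0.731 and 0.286 CPM in vehicle and 0.353, 8.88 and 2.52 CPM at day 22, with 310 reads in the group. The groups overlapped, since replicate 1 lay within the vehicle range, and the log2 fold change was 3.11 ± 0.91 (edgeR adjusted p = 0.436). Il18bp, which binds and neutralises IL-18, read 3.32, 2.56 and 1.95 CPM in vehicle and 3.38, 8.62 and 4.83 at day 22, with a log2 fold change of 1.10 ± 0.34. Il2rb, a chain of the IL-2 and IL-15 receptors, read 0.569, 1.05 and 0.381 CPM in vehicle and 0.655, 3.82 and 1.45 at day 22, with a log2 fold change of 1.56 ± 0.56. In all 3 genes replicate 2 was the highest. At day 35 the lowest p belonged to Il13ra1, at 12.4, 14.7 and 15.5 CPM and a log2 fold change of 0.35 ± 0.15 (edgeR adjusted p = 0.351), and Il20rb and Il7r followed Il1b with −0.56 ± 0.27 and 1.00 ± 0.55. Of the members highest in DRG, none was near a call. At day 7 the log2 fold change was −0.20 ± 0.23 for Il31ra and −0.01 ± 0.08 for Il34, and on the other days it ran from −0.04 to 0.11 for Il31ra and from −0.08 to 0.04 for Il34. The broad receptors Il4ra and Il6st had 0.05 ± 0.10 and 0.16 ± 0.19 at day 7.

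The same question in paw skin had the same limits, with vehicle at day 2 alone and shared by 4 comparisons. No member passed an adjusted p of 0.05 in edgeR on any day, in a tissue where 0%, 0%, 1.12% and 0% of all genes did at days 2, 7, 22 and 35. At an unadjusted p under 0.05 there were 4, 12, 23 and 4 of 54 members, beside 7.36%, 13.8%, 18.7% and 5.31% of all genes. Of the 23 at day 22, which were 42.6% of members, 18 were higher and 5 lower, beside 12.6% and 6.02% of all genes. DESeq2 called 0, 5, 12 and 0 members, including Il1b, Il33, Il1rl1 and Il6st on both day 7 and day 22, beside 0.293%, 4.32%, 8.7% and 0.151% of all genes. Replicate 2 was the highest PTX library in 9 of the 11 members that were higher at day 7 and in 14 of the 18 at day 22.

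In paw the alarmin Il33 and its receptor Il1rl1 lay wholly above vehicle on all 4 PTX days, without a call in edgeR on any. Values are given for days 7 and 22. Il33 read 8.52, 11.03 and 11.3 CPM in vehicle, 16.8, 47.0 and 22.9 at day 7, and 22.3, 51.5 and 16.7 at day 22. All 6 of these PTX libraries lay above every vehicle library. The ratio of means was 2.81 at day 7 and 2.93 at day 22, with log2 fold changes of 1.44 ± 0.40 (edgeR adjusted p = 0.142) and 1.48 ± 0.40 (adjusted p = 0.073). Il1rl1 read 3.27, 3.79 and 5.62 CPM in vehicle, 8.97, 18.9 and 14.1 at day 7, and 8.94, 32.9 and 5.89 at day 22. It too lay wholly above vehicle on both days, though day 22 replicate 3 did so narrowly. Its log2 fold change was 1.67 ± 0.52 at day 7 (adjusted p = 0.172) and 1.82 ± 0.52 at day 22 (adjusted p = 0.084).

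The lowest adjusted p-values in paw at day 22 belonged to Il2rg, Il16, Il6st and Il10ra. The common gamma chain Il2rg read 1.30, 2.30 and 2.35 CPM in vehicle, 2.71, 7.87 and 4.53 at day 7, and 3.93, 8.85 and 8.22 at day 22. Every library of both days lay above vehicle, and the log2 fold change at day 22 was 1.75 ± 0.42 (edgeR adjusted p = 0.059), the lowest adjusted p of any member against vehicle. The gp130 chain Il6st read 351.5, 348.1 and 340.3 CPM in vehicle, 424.9, 625.4 and 609.5 at day 7, and 593.6, 800.4 and 449.0 at day 22. Its vehicle libraries agreed closely and its PTX libraries did not overlap them, with a log2 fold change of 0.76 ± 0.19 at day 22 (adjusted p = 0.063). Il16 read 20.2, 21.5 and 18.4 CPM in vehicle and 32.3, 38.8 and 28.7 at day 22, a log2 fold change of 0.67 ± 0.16 (adjusted p = 0.061). The IL-10 receptor chain Il10ra read 11.2, 10.5 and 14.9 CPM in vehicle and 17.8, 25.0 and 22.7 at day 22, a log2 fold change of 0.78 ± 0.20 (adjusted p = 0.067). Neither gene overlapped vehicle at day 22. Il2rg and Il6st also lay wholly above vehicle at day 2, though not at day 35. Il1r1 had 0.58 ± 0.25 at day 7 and 0.64 ± 0.25 at day 22. Over the 54 members, 16 lay wholly above vehicle at day 7 and 15 at day 22, beside 19.3% and 17.7% of all genes, which is 29.6% and 27.8% of members. Wholly below lay 4 and 6 members, beside 6.81% and 7.14% of all genes. On days 2 and 35 the counts were 10 and 4 above, beside 8.38% and 3.95%, and 3 and 4 below, beside 8.16% and 11.4%.

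The inflammatory ligands Il1b and Il6 differed widely between libraries of a paw group. Il1b read 0.247, 0.345 and 0.323 CPM in vehicle, 0.226, 16.4 and 4.15 at day 7, 0.344, 11.4 and 8.60 at day 22, and 0.700, 2.90 and 3.61 at day 35. Replicate 1 lay below the vehicle range at day 7 and within it at day 22, while the other replicates of both days were well above it, and all of day 35 lay above vehicle. The log2 fold changes were 4.42 ± 1.41 (edgeR adjusted p = 0.187), 4.38 ± 1.40 (adjusted p = 0.123) and 3.01 ± 1.42. Il6 read 0.0617, 0.115 and 0.0922 CPM in vehicle, 0.226, 4.58 and 0.186 at day 7, 0.196, 5.82 and 0.380 at day 22, and 0.108, 0.527 and 5.85 at day 35. Its 4 libraries with at least 10 counts were thus scattered over the days, which is what carried it past the rule for members, and its log2 fold change at day 35 was 4.54 ± 1.98 (adjusted p = 0.913).

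The 5 members lower in paw at day 22 at an unadjusted p under 0.05 were Il1a, Il18, Il1f8, Il1rap and Il12rb2, none of them called. Il1a read 17.7, 18.4 and 27.4 CPM in vehicle and 12.9, 10.5 and 15.01 at day 22, a log2 fold change of −0.78 ± 0.27 (edgeR adjusted p = 0.135). Il18 read 81.3, 83.6 and 104.7 CPM in vehicle and 66.0, 45.8 and 74.0 at day 22, a log2 fold change of −0.59 ± 0.25. Both lay wholly below vehicle. Il1f8 had −0.53 ± 0.20, Il1rap −0.47 ± 0.20 and Il12rb2 −0.82 ± 0.37. Of the other members high in skin, Il1f6, Il1f9, Il1rn, Il20rb and Il22ra1 did not lie wholly below vehicle, and Il1f5 at day 22 ran from 119 to 265 CPM and overlapped its vehicle range of 263 to 315. At day 7 Il1f10 read 2.26, 3.47 and 3.41 CPM against 4.82, 6.38 and 8.76 in vehicle, a log2 fold change of −1.18 ± 0.36 (adjusted p = 0.164). By the library titles, the day 2 comparison was the sole one with vehicle of the same day. There Il11, a cytokine that signals through gp130, read 0.804, 0.645 and 0.450 CPM against 1.23, 1.55 and 1.29 in vehicle. Its log2 fold change was −1.07 ± 0.29 (edgeR adjusted p = 0.599). The other members with low p at day 2 were Il7r, Il6ra and Il18r1, with 0.70 ± 0.27, 0.46 ± 0.18 and 0.98 ± 0.39. At day 35 Il31ra read 0.323, 0.316 and 0.341 CPM against 1.05, 0.977 and 0.415, a log2 fold change of −1.22 ± 0.43 (adjusted p = 0.913), while the skin cytokine Il20 had −1.71 ± 0.69 and Il7 had 0.82 ± 0.30.

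Cell type markers differed between the same paw groups. Summed over 10 macrophage markers the level was 269 to 452 CPM in vehicle, 654 to 1003 at day 7 and 523 to 1436 at day 22. Mast cell markers, of cells known to carry ST2, summed to 92.9 to 131 CPM in vehicle, 193 to 268 at day 7 and 190 to 284 at day 22. Fibroblast markers summed to 5970 to 7765 CPM in vehicle, 9392 to 19047 at day 7 and 12417 to 19592 at day 22. None of these 3 sums overlapped vehicle on either day. Fat cell markers summed to 332 to 539 CPM in vehicle and 782 to 1097 at day 22, and endothelial markers to 444 to 560 and 578 to 1010, again with no overlap. The 10 neutrophil markers summed to 9.71 to 41.3 CPM in vehicle, to 9.93, 113 and 20.9 in day 7 replicates 1 to 3 and to 9.23, 115 and 210 in those of day 22. Replicate 1 was thus the lowest of its group on both days for this sum as for Il1b. Much of the sum was S100a8 and S100a9, at 40.2 and 54.5 CPM in day 7 replicate 2. Camp read 0.282, 0.294 and 0.248 CPM in day 7 replicates 1 to 3, and Ngp 0.338, 1.82 and 0.186. In day 22 replicates 2 and 3 Camp read 0.2405 and 6.22 CPM, and Ngp 0.385 and 12.8. Keratinocyte markers summed to 38398 to 50250 CPM in vehicle and 22739 to 42720 at day 22. The T cell list summed to 26.4 to 28.1 and 29.9 to 55.7 CPM, but most of that was Gata3. Gata3 averaged 19.7 CPM in vehicle and 32.8 at day 22. The T cell genes Cd3e, Cd3d and Cd3g averaged 0.219, 0.182 and 0.364 CPM in vehicle and 0.335, 0.320 and 0.735 at day 22. Without replicate 2 of day 22 the log2 fold changes at day 22 were 1.57 for Il2rg, 0.87 for Il33, 0.75 for Il1rl1, 0.56 for Il16 and 0.54 for Il6st, and no member was called. Without replicate 3 of day 22, 6 members were called, and without replicate 1, 2 were. The shares of all genes called in these fits are not given, so the counts have no background beside them. The part of these cell types was not tested.

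**Figure D3:**
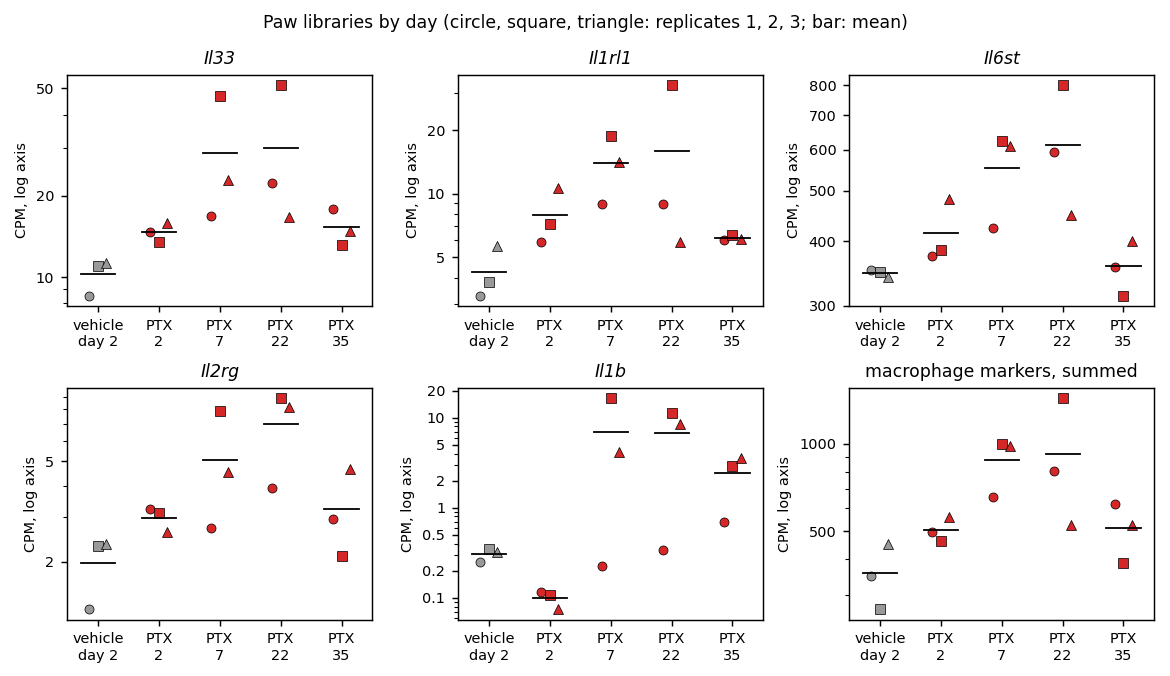
Paw levels in CPM of Il33, Il1rl1, Il6st, Il2rg and Il1b and the summed level of the macrophage markers, by group from vehicle day 2 to PTX day 35; circle, square and triangle are replicates 1, 2 and 3 and the bar is the mean. For Il33, all libraries of days 7 and 22 lie between 16.7 and 51.5 CPM, above the vehicle maximum of 11.3 CPM.

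The difference between both tissues was tested directly, as the PTX effect in DRG minus that in paw on the same day. No member passed an adjusted p of 0.05 in edgeR at day 2, 7, 22 or 35, while 0%, 0.196%, 0.0245% and 0.0184% of all genes did. At an unadjusted p under 0.05 there were 1, 10, 10 and 3 members, beside 6.06%, 13.7%, 13.2% and 7.44% of all genes, and DESeq2 called Il1f9, Il1r2 and Il1rn at day 7, beside 2.31% of all genes. These 3 had differences of 2.26 ± 0.66, 2.03 ± 0.52 and 2.47 ± 0.67 on the log2 scale at day 7 (edgeR adjusted p = 0.119, 0.083 and 0.097). At day 22 the differences went to the paw side for Il33 at −1.33 ± 0.46, for Il1rl1 at −1.98 ± 0.63 and for Il16 at −0.61 ± 0.19 (adjusted p = 0.206, 0.161 and 0.147). Among PTX days alone, a joint test of days 2, 7, 22 and 35 called no member in DRG, where 0.0196% of all genes were called, and none in paw, where 0% were. At an unadjusted p under 0.05 that test found 8 members in DRG and 18 in paw, beside 9.33% and 17.9% of all genes, and DESeq2 called 7 members in paw and 0 in DRG, beside 11.5% and 1.21% of all genes.

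**Figure D4:**
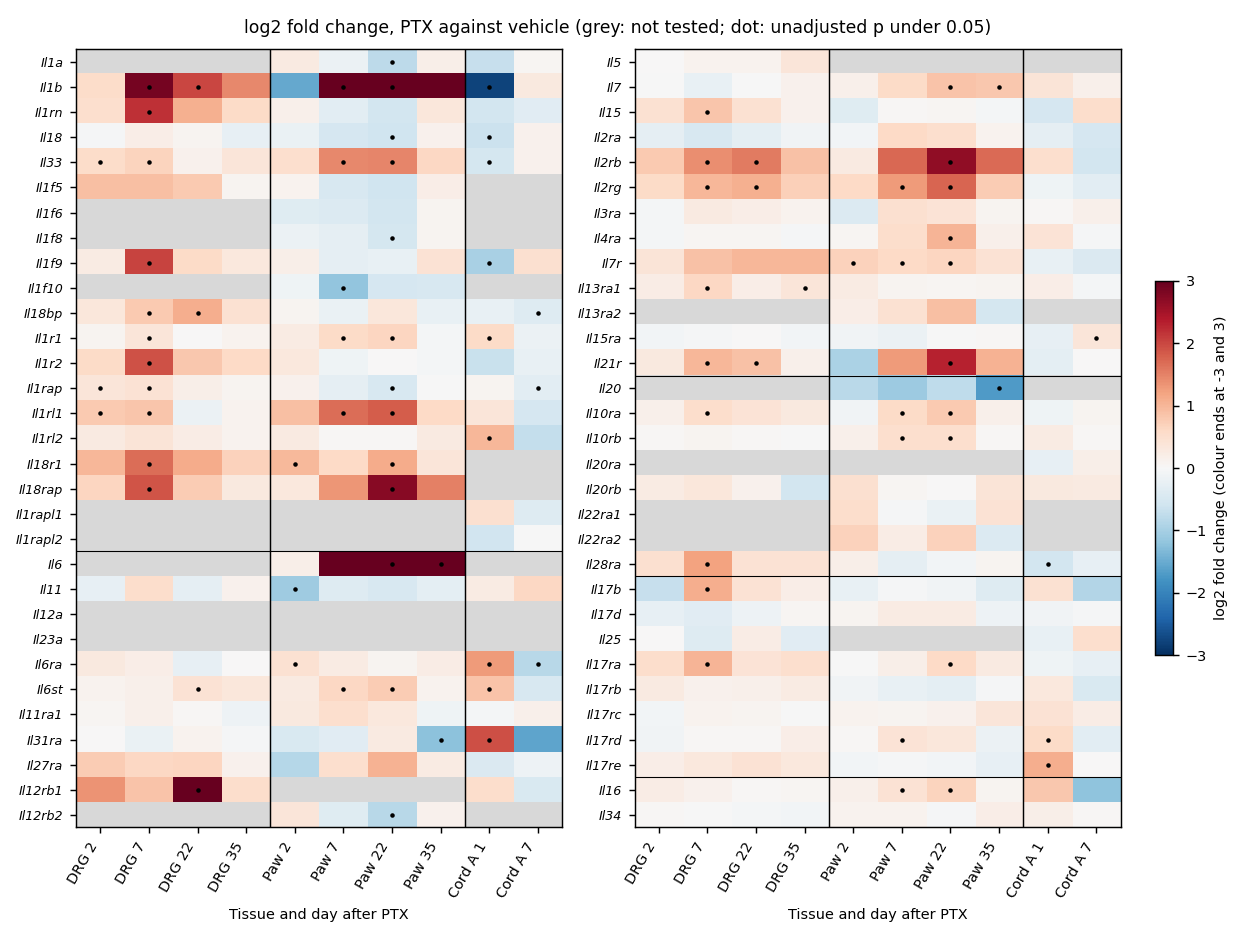
Heat map of log2 fold changes of PTX over vehicle for the tested members (rows) in 10 comparisons (columns), 4 in DRG, 4 in paw and 2 in set A cord; a dot marks an unadjusted p under 0.05 and grey a gene that was not tested. The dots number 20 in the column of DRG day 7 and 23 in that of paw day 22, and no member passed an adjusted p of 0.05.

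Genes that act with interleukins were taken from 5 lists: JAK-STAT signalling, IL-1 and IL-33 signalling, IL-17 signalling, interleukin maturation, and further partners of gp130 and the shared chains. Against vehicle, 1 of 19 JAK-STAT genes passed in paw at day 22, where 1.12% of all genes did: the phosphatase gene Ptpn6, at 30.8 ± 3.68 CPM against 19.7 ± 2.51 (SD, n = 3), a log2 fold change of 0.59 ± 0.13 (edgeR adjusted p = 0.049). Of 16 tested partners 1 passed there: Crlf2, a chain of the receptor for the alarmin TSLP, rose from 5.15 ± 0.25 to 10.01 ± 1.74 CPM in paw at day 22, a log2 fold change of 0.89 ± 0.19 (adjusted p = 0.048). No other gene of the lists passed against vehicle in any tissue. At an unadjusted p under 0.05 the shares of all genes were 22.4% in DRG at day 7, 13.8% in paw at day 7 and 18.7% in paw at day 22. In DRG at day 7 the maturation list, which holds the inflammasome genes that process IL-1 beta, had 6 of 12 genes at an unadjusted p under 0.05 and a median log2 fold change of 0.86. Among them were the protease gene Casp4 at 1.30 ± 0.34, the pore gene Gsdmd at 0.86 ± 0.23 and the sensor gene Nlrp3 at 1.38 ± 0.39, with adjusted p-values from 0.086 to 0.099. In paw at day 22 the same list had 7 of 10 at that p, and the JAK-STAT list 11 of 19. The partners had 9 of 16 at that p in paw on both day 7 and day 22, with median log2 fold changes of 0.73 and 0.84, while the IL-1 and IL-33 signalling list of adaptors and kinases had 3 and 6 of 18, with medians of 0.00 and 0.06. The IL-17 signalling list had at most 3 genes at that p in any comparison with vehicle.

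In spinal cord, set A had its own vehicle at each day. No member passed against vehicle at day 1 or day 7 in edgeR, where 0% of all genes passed on either day. At an unadjusted p under 0.05 there were 12 members at day 1 (7 higher, 5 lower) and 4 at day 7 (1 higher, 3 lower), beside 21.5% and 15.9% of all genes, and DESeq2 called Il6ra at day 1 and none at day 7, beside 1.35% and 4.34% of all genes. The day 1 values cannot be separated from the sensory neuron transcripts described above, which were present in all 3 PTX libraries (1014 to 2924 CPM) and in vehicle replicates 2 and 3 (1732 and 1537 CPM). Leaving those libraries out would leave 1 vehicle library and no PTX library at day 1. The members with the lowest p at day 1 were Il1b, Il6ra, Il31ra and Il1r1, with log2 fold changes of −2.78 ± 0.65, 1.27 ± 0.35, 1.94 ± 0.56 and 0.57 ± 0.17, all at an edgeR adjusted p of 0.165. At day 7, where no set A library held many sensory neuron transcripts, they were Il15ra, Il18bp, Il1rap and Il6ra, with 0.37 ± 0.14, −0.40 ± 0.16, −0.31 ± 0.13 and −0.84 ± 0.36 and adjusted p-values from 0.195 to 0.253. Il15ra, which presents IL-15 to neighbouring cells, read 9.79, 10.6 and 11.2 CPM in PTX day 7 against 7.25, 8.32 and 7.72 in vehicle, and Il18bp read 4.75, 4.89 and 5.35 against 6.33, 6.09 and 6.41. Neither of these genes overlapped between the groups. Wholly above or below vehicle lay 8 and 7 members at day 1, beside 7.34% and 10.1% of all genes, and 4 and 4 at day 7, beside 26.8% and 11.9%.

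Several members differed between the libraries with and without these transcripts. The 5 libraries with many sensory neuron transcripts held 3.01 to 16.6 CPM of Il31ra, against 0.0403 to 0.803 in the other 16. They held 24.8 to 35.0 CPM of Il4ra against 11.6 to 16.1, and 2.46 to 3.95 CPM of Il7 against 0.743 to 1.88. Members typical of cord went the other way, with Il33 at 42.3 to 95.2 CPM against 108 to 197. None of these ranges overlapped, and Il18, at 6.28 to 15.6 CPM against 14.2 to 20.7, overlapped slightly. Il16 followed another set of transcripts: in the 2 set B libraries with the most peripheral myelin markers, day 1 replicate 2 (12167 CPM) and day 35 replicate 3 (7372 CPM), it read 85.8 and 77.4 CPM although sensory neuron sums there were 69.2 and 67.9 CPM. The myelin list was chosen after these values were seen.

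**Figure D5:**
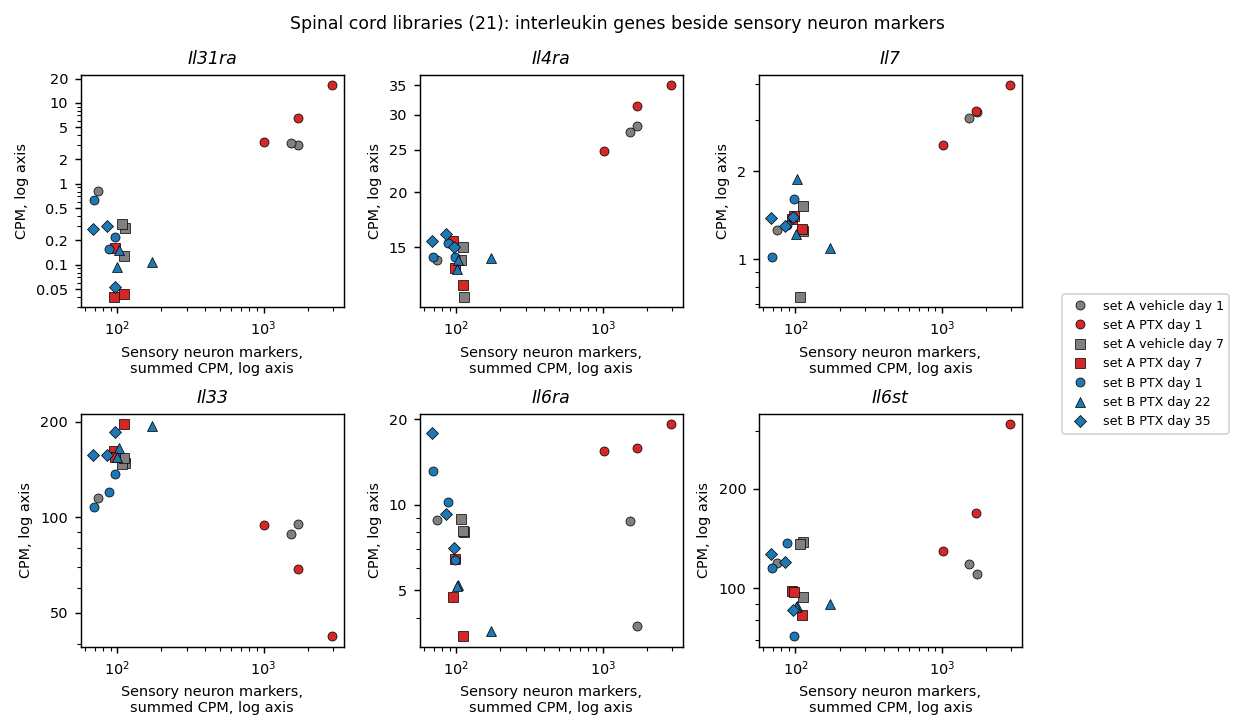
Levels in CPM of Il31ra, Il4ra, Il7, Il33, Il6ra and Il6st in the 21 cord libraries against the summed level of the sensory neuron markers in the same library. The 5 libraries above 1014 CPM of markers, all of set A at day 1, are high for Il31ra, Il4ra and Il7 and low for Il33.

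The difference between the set A days was tested as the PTX effect at day 7 minus that at day 1. Of 47 members, 3 passed, 1 higher and 2 lower, where 8.76% of all genes did (2.9% higher, 5.87% lower). The IL-6 receptor Il6ra read 19.2, 15.5 and 15.8 CPM in PTX against 8.80, 3.74 and 8.72 in vehicle at day 1, and 4.71, 3.45 and 6.43 in PTX against 7.98, 8.88 and 8.06 in vehicle at day 7. PTX libraries thus lay above vehicle at day 1 and below it at day 7, and the difference was −2.11 ± 0.50 on the log2 scale (edgeR adjusted p = 0.023). Its partner gp130, Il6st, read 313.1, 129.3 and 168.7 CPM against 119.0, 110.2 and 118.1 at day 1, and 98.2, 83.3 and 97.4 against 138.3, 136.4 and 94.3 at day 7. The groups were apart at day 1 and overlapped at day 7, and the difference was −1.32 ± 0.39 (adjusted p = 0.044). Il1b went the other way, at 0.101, 0.0332 and 0.187 CPM against 1.22, 0.893 and 0.193 at day 1, and 0.645, 0.218 and 0.201 against 0.121, 0.283 and 0.422 at day 7. Its difference was 3.08 ± 0.92 (adjusted p = 0.046), and its day 1 effect alone was −2.78 ± 0.65 (adjusted p = 0.165). The day 1 terms of all 3 differences include the libraries with sensory neuron transcripts. The 10 neutrophil markers also differed, at 98.3 to 748 CPM in vehicle and 39.2 to 373 in PTX at day 1. At day 7 they summed to 96.1 to 210 CPM in vehicle and 16.8 to 142 in PTX. The part of either set of transcripts was not tested. The count of 3 members became 8 without PTX day 1 replicate 2. It became 0 without any one of 5 other libraries, among them PTX day 1 replicate 1 and PTX day 7 replicate 1. A fit of the 4 groups alone and one without the low-count filter each called Il6ra and no other member, and DESeq2 called 7, where it called 15.2% of all genes.

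Vehicle alone also differed by day in set A. Between vehicle day 7 and day 1, 12 members differed, 2 higher and 10 lower, where 19.7% of all genes did (8.69% higher, 11% lower). Il31ra fell by 3.18 on the log2 scale with an SE of 0.69 (edgeR adjusted p = 0.0079), and Il33 rose by 0.65 ± 0.20. The count of 12 was 3 to 10 leaving out 1 library at a time and 6 in a fit of both groups alone, where Il31ra and Il33 were among the 6. The same direction held between sets: PTX day 1 of set B differed from PTX day 1 of set A in 17 members, 5 higher and 12 lower, where 32.9% of all genes differed (18.5% higher, 14.4% lower), with Il31ra at −4.72 ± 0.70 (adjusted p = 0.00079). That count was 5 to 18 leaving out 1 library at a time and 3 in a fit of both groups alone (Il17re, Il31ra and Il4ra). Set and preparation cannot be told apart there.

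Set B had no vehicle, so its later days were compared with its own day 1, shared by both comparisons. At day 22, 2 members of 47 were lower, where 1.09% of all genes differed (0.196% higher, 0.892% lower). The signalling receptor for IL-1, Il1r1, fell from 16.1, 13.6 and 11.5 CPM at day 1 to 6.22, 8.18 and 7.09 at day 22, a log2 fold change of −0.96 ± 0.17 (adjusted p = 0.0079). Il12rb1 fell from 5.63, 3.85 and 5.72 CPM to 2.89, 2.44 and 1.502, a log2 fold change of −1.18 ± 0.26 (adjusted p = 0.031). Neither gene's groups overlapped, and the count was also 2 in a fit without the set A libraries of day 1, chosen after seeing the data. It was 1 with a replicate block (Il1r1), 1 to 2 leaving out 1 library at a time, and 0 in a fit of both groups alone. DESeq2 called 5, where it called 2.62% of all genes. At day 35 no member passed in edgeR, where 0.0885% of all genes did, with 6 members at an unadjusted p under 0.05, beside 5.22% of all genes, and 1 call by DESeq2 (Il12rb1), beside 0.361% of all genes. The lipid droplet gene Plin4, 1 of 7 fat cell markers, averaged 97.2 CPM in set B at day 1, 5.24 at day 22 and 14.3 at day 35, while the fat cell gene Adipoq was at 0.239, 0.150 and 0.311 CPM, and their part in these values was not tested.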

How the data were processed

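Poly(A) libraries were made with a stranded kit and read as 50 bp single reads, per the labels' protocols. TopHat2, HTSeq and the genome build mm9 are named, without versions, in the submitters' processing notes. For every library the authors deposited a count table: whole reads for 22609 gene symbols, not normalized, followed by HTSeq's summary lines, which entered neither library sizes nor tests. The labels gave each library's group and replicate. Library titles and the series text differed on the day of the controls (day 1 or day 2), and the titles were followed.

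Tests used edgeR 4.0.16 under R 4.3.3. All libraries of a tissue entered 1 fit with a coefficient per group (TMM scaling, genes kept by filterByExpr with a smallest count of 10 and total of 15, robust quasi-likelihood test). The 3 vehicle tissues, and DRG with paw, were also fitted jointly. P-values were adjusted by Benjamini-Hochberg over all genes tested, called under 0.05, and the SE is the log2 fold change divided by the square root of F. DESeq2 1.42.0 was run as an alternative, with a replicate block, fits of the compared groups alone, no filter, RLE scaling and leaving out each replicate. DESeq2's shares of all genes are over genes to which it gave an adjusted p. The fit was tested on simulated data. CPM divides a count by all gene reads of its library.

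Genes named with values were, by rule, those called, the 4 with the lowest p in each comparison with vehicle, those with the most reads or the largest tissue differences, and a set of well-known members. Any other gene named beside a count was chosen after its values were seen. The members and lists were chosen with earlier results of these data known. All 62 members matched RefSeq (GRCm38.p6) by symbol or synonym, 48 of them with a promoter, while the files use mm9. SDs and SEs describe the spread between libraries. The fold bounds rest on a floor of 3 counts and hold no spread of the higher tissue. No 2 replicates agreed within sampling noise.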

Additional observations from a re-analysis of the deposited data

Results flagged for a closer look

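In the set A cord libraries the PTX effect differed between day 7 and day 1 for 3 members. The differences on the log2 scale were −2.11 for Il6ra, −1.32 for Il6st and 3.08 for Il1b, each past an adjusted p of 0.05 in edgeR for the difference itself. In a fit of the 4 groups alone, and without the low-count filter, Il6ra alone was called. All 3 rest on the day 1 libraries, 5 of 6 of which held 1014 to 2924 CPM of sensory neuron markers. Peripheral myelin markers, a list chosen after values were seen, summed to 5108 to 15982 CPM in all 6 libraries of day 1, vehicle replicate 1 included at 15507 CPM, and to 710 to 3476 CPM at day 7. The 10 neutrophil markers summed to 98.3 to 748 CPM in vehicle and 39.2 to 373 in PTX at day 1. At day 7 they summed to 96.1 to 210 CPM in vehicle and 16.8 to 142 in PTX. The part of any of these transcripts was not tested.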

How the results depend on the processing

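No result reversed its direction under an alternative that was run, and the scaling by RLE in place of TMM changed no count of members beyond 1.5 times. DESeq2 called more members: 7 in DRG day 7, 1 in DRG day 22, 5 in paw day 7, 12 in paw day 22, 7 among PTX days in paw, 3 for DRG minus paw at day 7, 1 in set A cord day 1, 7 for the set A effect of day 7 minus day 1, 5 in set B day 22 and 1 in set B day 35. Fits of the compared groups alone gave 2 in paw day 7 (Il1r1 and Il1rl1), 1 in set A day 7 (Il6ra), 1 for the set A effect of day 7 minus day 1 (Il6ra), 6 between the set A vehicle days, 3 between sets at day 1 and 0 in set B day 22. Without a filter on low counts the set A effect of day 7 minus day 1 had 1 call (Il6ra). The replicate block gave 1 call in DRG day 7 (Il1b) and 1 in set B day 22 (Il1r1). Replicate numbers are not a stated pairing: in no comparison were all 3 correlations of same-numbered libraries over 0.1 (in DRG day 7, −0.02 to 0.11). Leaving out 1 replicate at a time, the counts ran from 0 to 8 in DRG day 7, 0 to 1 in DRG day 22, 0 to 6 in paw day 22, 0 to 3 for DRG minus paw at day 22, 0 to 6 in set A day 1, 0 to 8 for the set A effect of day 7 minus day 1, 3 to 10 between the set A vehicle days, 5 to 18 between sets and 1 to 2 in set B day 22. The count of 8 in DRG came without PTX day 7 replicate 3, that of 6 in paw without PTX day 22 replicate 3, and that of 6 in set A without PTX day 1 replicate 2. The causes were not tested. For the leave-one-out fits and the other edgeR alternatives the shares of all genes called are not given. Their counts show how far a result moves and are not set against a background. The rule for members gave 68 genes with 10 counts in at least 1 library and 54 with 20 counts in at least 3. Low counts limit Il1b, Il6 and other genes under 1 CPM.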
